A study of Mus musculus with 11 samples.

Results

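The 8 genes described here are the mast cell identity and protease genes Kit, Gata2, Cma1, Tpsb2, Cpa3, Hdc, Fcer1a and Ms4a2, which were taken by name from a panel of 754 genes and followed in all 11 mice. All 8 were among the 697 genes that passed the filter on low values, and no member was left out. RNA from skin of the nape of the neck, 100 ng per mouse, had been counted with NanoString probes, which bind single RNA molecules without amplification. Recipient mice were 8 to 10 weeks old and received 850 cGy of ionizing radiation, then bone marrow cells and splenocytes by vein, in a model in which donor and recipient differ at minor histocompatibility antigens, and skin was taken at 7 weeks. The question the groups pose is how far the transcripts of mast cells remain in skin after transplant, with and without recipient mast cells.

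Syngeneic mice (n = 3) were C57BL/6J recipients, for which the study's methods give donors of the same strain, although the sample labels name LP/J donor cells for every mouse. The allo-WT mice (n = 3) were C57BL/6J recipients of LP/J cells. The allo-MCd mice (n = 5) were mast cell-deficient recipients of LP/J cells, of the strain B6.Cg-KitW-sh/HNihrJaeBsmGlliJ, which carries an inversion near Kit that lowers its expression in some lineages. Irradiation and the transfer of donor cells were common to all groups, and donor cells in the allo-MCd mice carried the Kit alleles of LP/J. Loss of Kit expression also affects other cells, among them melanocytes, for which 0 of 7 marker genes were on the panel.

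Mast cells are long-lived granulated cells of skin and mucosa. Their precursors come from bone marrow, and in tissue they depend on stem cell factor acting through the receptor Kit and on the transcription factor GATA2. They store histamine and proteases on a proteoglycan core, and carry the high-affinity IgE receptor, whose cross-linking by antigen releases the granules. In connective tissue such as skin the granules hold chymase, tryptase and carboxypeptidase A3 together.

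RefSeq (GRCm38.p6) places Kit at chr5:75574987-75656722, Gata2 at chr6:88193891-88207032, and Tpsb2 at chr17:25366308-25368096. Near Tpsb2 lies the tryptase gene Tpsab1, at chr17:25343245-25345562, which RefSeq lists as a transcribed pseudogene in this C57BL/6J assembly. Whether the tryptase probe can tell the 2 apart was not tested. As a description of genes that were all lower in allo-MCd skin, the 250 bases before an annotated transcript start were searched. They are shown for the 5 members whose window holds a GATA motif, the site bound by GATA factors. The letters searched were AGATAA and its forms with T as the first letter, with G as the last letter, or with both, on both strands, and the matches are in capitals. These sequences run 5′ to 3′ toward the start:
Cma1, chr14:55944676-55944925, minus strand: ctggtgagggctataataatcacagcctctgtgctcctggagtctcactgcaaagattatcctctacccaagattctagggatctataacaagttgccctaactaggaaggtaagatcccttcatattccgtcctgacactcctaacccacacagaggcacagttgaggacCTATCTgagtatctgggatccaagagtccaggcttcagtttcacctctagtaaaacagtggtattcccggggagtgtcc
Cpa3, chr3:20242182-20242431, minus strand: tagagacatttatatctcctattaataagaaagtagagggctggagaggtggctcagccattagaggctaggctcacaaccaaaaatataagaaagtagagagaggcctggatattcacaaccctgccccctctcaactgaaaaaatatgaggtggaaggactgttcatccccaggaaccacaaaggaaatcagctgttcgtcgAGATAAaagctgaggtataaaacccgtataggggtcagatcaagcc
Fcer1a, chr1:173227230-173227479, minus strand: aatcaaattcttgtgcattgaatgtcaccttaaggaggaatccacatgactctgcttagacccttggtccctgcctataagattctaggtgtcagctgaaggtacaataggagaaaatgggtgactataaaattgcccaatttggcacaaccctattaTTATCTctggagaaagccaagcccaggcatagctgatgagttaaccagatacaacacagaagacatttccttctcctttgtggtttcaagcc
Ms4a2, chr19:11623720-11623969, minus strand: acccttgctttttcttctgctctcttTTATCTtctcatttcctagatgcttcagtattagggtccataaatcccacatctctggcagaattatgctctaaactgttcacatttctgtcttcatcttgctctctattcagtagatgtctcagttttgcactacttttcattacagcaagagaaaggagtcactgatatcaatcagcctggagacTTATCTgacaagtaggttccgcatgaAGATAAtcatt
Hdc, chr2:126618679-126618928, minus strand: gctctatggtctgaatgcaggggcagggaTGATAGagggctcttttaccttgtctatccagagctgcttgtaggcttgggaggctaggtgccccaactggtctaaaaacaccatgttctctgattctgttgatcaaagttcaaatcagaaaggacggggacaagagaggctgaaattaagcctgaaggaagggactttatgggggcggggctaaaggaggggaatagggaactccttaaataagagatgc

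Of the 7 members with an entry among the 32851 promoter windows, these 5 had a match and Kit and Gata2 had none in their windows. The 7 members had 9 windows, of which 5 held a match. Among all windows of the same length, 26.5% held at least 1 match. Ms4a2 had 3 matches, at positions -224, -37 and -11 from the start, and 1.35% of all windows held 3 or more. The single matches of Cpa3, Cma1, Fcer1a and Hdc began at -46, -79, -92 and -221. RefSeq places Ms4a2 at chr19:11615517-11623790 and Hdc at chr2:126593659-126624025, so the starts used are not the outermost of these genes. The Hdc window lies wholly within its gene, as do the Ms4a2 matches at -37 and -11. The windows of Cpa3 and Fcer1a overlap the ends of their genes, at 20242209 and 173227232. A match describes these letters and is not a measured binding site.

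Values are normalized counts, molecules counted per gene and scaled by the authors for each mouse. Background is the mean of the negative control probes of a mouse plus 2 SD, on the same scale, and lay between 14.3 and 37.5. Whole counts recovered from the values summed to between 831632 and 1460260 per mouse. The allo-WT mouse 1 stood apart: its strongest positive control probe counted 3975 molecules where the other mice counted 17615 to 33547, and its values had been multiplied by 2.54, the largest factor. The typical gene was not at the same level in all groups, since allo-MCd values differed by a median of -0.71 from allo-WT and -0.59 from syngeneic values, and allo-WT by 0.22 from syngeneic values, over the 697 genes on the log2 scale. Scaling every mouse to the same median gene changed these medians to 0.10, 0.00 and -0.01. Each sample was a separate mouse, and the labels do not say which transplant experiment a mouse came from.

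Allo-MCd skin held less RNA of all 8 members than allo-WT skin, by between 2.72-fold for Gata2 and 27.7-fold for Cpa3 (limma, adjusted p at most 0.05, log2(value + 1) scale). Of all genes tested, 50.4% were called lower in this comparison, and the median log2 difference was -3.97 over the members against -0.71 over all genes. In 7 members every allo-MCd mouse lay below every allo-WT mouse, and the groups overlapped for Kit. The share of all genes without overlap in this direction was 45.9%. Without allo-WT mouse 1 the 7 members other than Kit were still called, with log2 differences from -1.32 for Gata2 to -4.22 for Cpa3. Of all genes, 43.5% were called lower without that mouse. With all mice scaled to the median gene, 6 members, all but Kit and Gata2, remained called lower. Of all genes, 30.5% were then called lower and 35.2% higher. Against syngeneic skin, too, all 8 were lower, where 37% of all genes were called lower, with a median log2 difference of -3.07 against -0.59, and none of the 8 overlapped, as was so for 37.3% of all genes. After scaling to the median gene 7 members, all but Fcer1a, remained lower, where 13.4% of all genes were called lower and 13.9% higher. In whole skin, fewer mast cells and less RNA per mast cell cannot be told apart.

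Between allo-WT and syngeneic skin 1 of 8 members passed the test, Fcer1a, which was higher in allo-WT mice, and none was called lower. Of all genes 28.1% were called higher and 14.9% lower. The groups overlapped in each of the 8 members, whereas 33.7% of all genes had every allo-WT mouse above and 20.2% every allo-WT mouse below the syngeneic mice. The median log2 difference of the members was -0.04, against 0.22 over all genes.

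**Figure D1:**
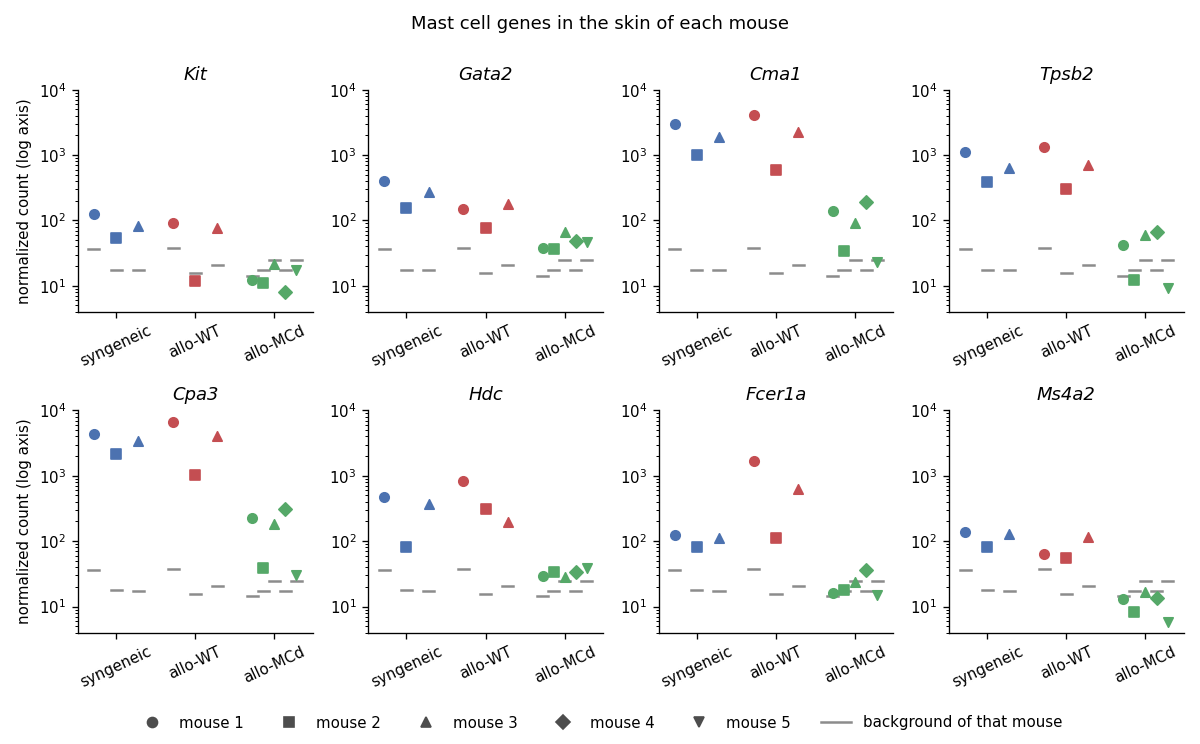
Normalized counts (log axis) of the 8 members in each mouse, with 1 symbol per mouse and a grey line at the background of that mouse. The allo-MCd mice lie below the syngeneic mice in every panel, and their Kit and Ms4a2 values lie below background.

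Kit encodes the receptor tyrosine kinase for stem cell factor. Its values were 125.7, 54.1 and 81.6 normalized counts in syngeneic mice 1 to 3, and 91.3, 11.9 and 75.4 in allo-WT mice 1 to 3. In allo-MCd mice 1 to 5 they were 12.2, 11.1, 21.7, 7.98 and 17.3. The low value of allo-WT mouse 2 lay inside the allo-MCd range and below its own background of 15.7, and the other allo-WT mice lay inside the syngeneic range. No allo-MCd mouse exceeded its background, so the level there has only an upper bound, and on the authors' scaling Kit was at least 4.26-fold higher in syngeneic mice. This bound depends on the scaling, since the log2 difference itself was -1.99 after scaling to the median gene and -1.93 with quantile normalization. No bound is given against allo-WT mice, of which 2 of 3 were above background.

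The log2 difference of Kit between allo-MCd and allo-WT mice was -1.66 ± 0.59 (SE; limma, adjusted p = 0.028; exact permutation p = 0.0714, two-sided). This call was lost after scaling to the median gene (adjusted p = 0.17) and with quantile normalization (adjusted p = 0.44). Leaving out single mice also ended it, allo-WT mouse 1 (adjusted p = 0.15) or 3 (0.11) and allo-MCd mouse 1 (0.052), 2 (0.052) or 4 (0.057), while without allo-WT mouse 2 the difference was -2.56 (adjusted p = 0.000405). Against syngeneic mice the difference was -2.54 ± 0.59 (adjusted p = 0.00547), the groups did not overlap, and the exact permutation p was 0.0179, the smallest that 3 against 5 mice can give. Allo-WT and syngeneic mice differed by -0.89 ± 0.66 (adjusted p = 0.28), and without allo-WT mouse 2 by 0.01.

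Gata2 encodes a zinc finger transcription factor of mast cells, and of endothelium and blood progenitors. Its values were 407, 152.5 and 272.4 normalized counts in syngeneic mice, and 149.6, 75.2 and 178.8 in allo-WT mice. In allo-MCd mice they were 38.0, 36.2, 66.1, 47.9 and 46.1, all above background and all below the lowest allo-WT value. The order of the groups was syngeneic, allo-WT and allo-MCd, with allo-WT mouse 3 inside the syngeneic range.

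In allo-MCd mice Gata2 was 2.72-fold below allo-WT mice (log2 difference -1.45 ± 0.37, SE; limma, adjusted p = 0.00532), a call that was lost after scaling to the median gene (-0.63, adjusted p = 0.11) and with quantile normalization (-0.49, adjusted p = 0.22). It was 5.51-fold below syngeneic mice (-2.46 ± 0.37, adjusted p = 0.00131). The allo-WT minus syngeneic difference was -1.02 ± 0.42 and missed the threshold (limma, adjusted p = 0.0661). It passed under median scaling (-1.25, adjusted p = 0.0156), under quantile normalization, with the replicate number as a block, and without syngeneic mouse 2 or allo-WT mouse 3. Of all genes, 26.75% were called lower under median scaling and 29.99% under quantile normalization. Of 11 endothelial marker genes 5 were on the panel, and Cd34, Cdh5 and Tek were called lower in allo-WT than in syngeneic mice, as were 14.9% of all genes, while Erg (-0.79) and Flt1 (-0.14) were not called. The summed level of the 5, most of it Cd34, was 11841 to 15685 in syngeneic, 4508 to 6942 in allo-WT and 4030 to 8720 in allo-MCd mice. Their part in the Gata2 values was not tested.

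The 3 granule protease genes were between 21.9-fold and 29.1-fold lower in allo-MCd mice over both comparisons. Cma1 encodes chymase, mouse mast cell protease 5 by its older name. It measured 2958, 999.6 and 1857 normalized counts in syngeneic mice, 4069, 588.8 and 2237 in allo-WT mice, and 140.5, 34.3, 91.9, 188.2 and 23.0 in allo-MCd mice. The highest allo-MCd value was below the lowest value of the other groups, and 4 of 5 allo-MCd values were above background. In allo-MCd mice Cma1 was 23.9-fold below allo-WT mice (log2 difference -4.58 ± 0.74, SE; limma, adjusted p = 0.000227) and 24.1-fold below syngeneic mice (-4.59 ± 0.74, adjusted p = 0.00138).

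Tpsb2 encodes the beta tryptase of skin mast cells. It measured 1112, 383 and 642.8 normalized counts in syngeneic mice, 1336, 300.9 and 705.2 in allo-WT mice, and 41.8, 12.1, 59.9, 66.2 and 9.21 in allo-MCd mice, of which 3 of 5 were above background. The allo-MCd mice did not overlap the other groups, and Tpsb2 in them was 22.1-fold below allo-WT mice (-4.47 ± 0.69, limma adjusted p = 0.000158) and 21.9-fold below syngeneic mice (-4.45 ± 0.69, adjusted p = 0.00135). Cpa3 encodes carboxypeptidase A3, which trims peptides and venom toxins in the granule. It measured 4410, 2170.2 and 3387 in syngeneic mice, 6690.1, 1015 and 4127 in allo-WT mice, and 226.3, 38.9, 180.8, 308.7 and 29.9 in allo-MCd mice. All 5 allo-MCd values of Cpa3 were above background, and the log2 difference was -4.79 ± 0.80 from allo-WT (adjusted p = 0.000264) and -4.86 ± 0.80 from syngeneic mice (adjusted p = 0.00138). For all 3 proteases the exact permutation p of both comparisons was 0.0179, the smallest possible. The size of the difference depended on the scaling and on single mice. Scaled to the median gene, it was -3.66 to -3.97 from allo-WT and -3.87 to -4.28 from syngeneic mice. From allo-WT mice it was -3.96 to -4.22 without allo-WT mouse 1 and -5.03 to -5.58 without allo-WT mouse 2, and all of these were called.

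Between allo-WT and syngeneic mice the proteases differed by -0.01 ± 0.83 for Cma1, 0.02 ± 0.77 for Tpsb2 and -0.07 ± 0.89 for Cpa3 on the log2 scale (SE; limma, adjusted p of 0.991, 0.987 and 0.955). These errors are wide, and the sign of each changed when single mice were left out. In each protease allo-WT mouse 1 was the highest and allo-WT mouse 2 the lowest of the 6 mice, so that allo-WT mice spanned 6.91-fold for Cma1, 4.44-fold for Tpsb2 and 6.59-fold for Cpa3, against 2.96-fold, 2.90-fold and 2.03-fold in syngeneic mice. Without allo-WT mouse 2 the differences were 0.77, 0.58 and 0.72, without allo-WT mouse 1 they were -0.62, -0.49 and -0.64, and none passed.

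Hdc encodes histidine decarboxylase, which makes histamine. It measured 481.8, 82.2 and 367.2 normalized counts in syngeneic mice, 846.7, 314.1 and 195.4 in allo-WT mice, and 29.6, 33.4, 27.9, 34.3 and 39.1 in allo-MCd mice. The allo-MCd values lay close together, 1.40-fold apart and all above background, and below every value of the other groups. In allo-MCd mice Hdc was 11.1-fold below allo-WT mice (log2 difference -3.48 ± 0.56, SE; limma, adjusted p = 0.000208) and 7.30-fold below syngeneic mice (-2.87 ± 0.56, adjusted p = 0.00255). The first difference was -2.89 without allo-WT mouse 1 and -2.66 after scaling to the median gene, and the second was -3.65 without syngeneic mouse 2, called in each case. Allo-WT and syngeneic mice overlapped (0.61 ± 0.62, adjusted p = 0.43), and the difference was -0.17 without syngeneic mouse 2, the lowest of the 6, and 0.019 without allo-WT mouse 1, the highest.

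Fcer1a encodes the alpha chain of the high-affinity IgE receptor, which binds IgE. It measured 122.7, 81.1 and 112.5 normalized counts in syngeneic mice, 1706, 111.1 and 624.7 in allo-WT mice, and 15.9, 17.6, 23.8, 36.7 and 15.0 in allo-MCd mice, of which 3 of 5 were above background. Allo-WT mice 1 and 3 lay above every syngeneic mouse, and allo-WT mouse 2 lay inside the syngeneic range. In allo-MCd mice Fcer1a was 22.8-fold below allo-WT mice (log2 difference -4.51 ± 0.67, SE; limma, adjusted p = 0.000109) and 4.86-fold below syngeneic mice (-2.28 ± 0.67, adjusted p = 0.0175). The first difference was -3.62 without allo-WT mouse 1, -5.58 without allo-WT mouse 2 and -3.71 after scaling to the median gene, called in each case. The call against syngeneic mice was lost after scaling to the median gene (adjusted p = 0.064), with quantile normalization (0.070) and without syngeneic mouse 1 (0.068) or 3 (0.059).

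In allo-WT mice Fcer1a was 4.70-fold higher than in syngeneic mice (log2 difference 2.23 ± 0.75, SE; limma, adjusted p = 0.0298), but the exact permutation test gave p = 0.3, two-sided. The call was lost without allo-WT mouse 1 (1.34, adjusted p = 0.12) or 3 (2.06, adjusted p = 0.066), and without syngeneic mouse 1 (adjusted p = 0.060), 2 (0.079) or 3 (0.065). Without allo-WT mouse 2 the difference was 3.30 (adjusted p = 0.00069). Of 6 eosinophil marker genes 5 were on the panel and 3 were tested, and Siglecf, Ccr3 and Il5ra were called higher in allo-WT mice, as were 28.1% of all genes, with Il5ra above background in 2 of 3 syngeneic mice. Their 5 genes summed to 127.7 to 142.3 in syngeneic, 247.2 to 2138 in allo-WT and 124.5 to 215.3 in allo-MCd mice. Of 5 basophil genes the panel held Il3ra and Il4, and their sum was 331.1 to 625.5, 334.6 to 459.9 and 113.9 to 286.6. Most of it was Il3ra, which differed by -0.55 between allo-WT and syngeneic mice (limma, adjusted p = 0.23), while Il4 differed by 1.55 (adjusted p = 0.069), from 19.9 to 34.4 in syngeneic and 27.5 to 135.4 in allo-WT mice. Their part in the Fcer1a values was not tested.

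Ms4a2 encodes the beta chain of the same receptor, which amplifies its signal. It measured 137.7, 81.1 and 130.1 normalized counts in syngeneic mice, 63.4, 54.9 and 115 in allo-WT mice, and 12.9, 8.34, 16.5, 13.6 and 5.76 in allo-MCd mice. No allo-MCd value was above background, and on the authors' scaling Ms4a2 was at least 3.82-fold higher in allo-WT and at least 5.88-fold higher in syngeneic mice. The log2 difference was -2.67 ± 0.38 from allo-WT (SE; limma, adjusted p = 8.46e-05) and -3.28 ± 0.38 from syngeneic mice (adjusted p = 0.000406). These bounds depend on the scaling, since scaling to the median gene changed the log2 differences to -1.88 and -2.73. It was not called between allo-WT and syngeneic mice (-0.61 ± 0.43, adjusted p = 0.25).

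**Figure D2:**
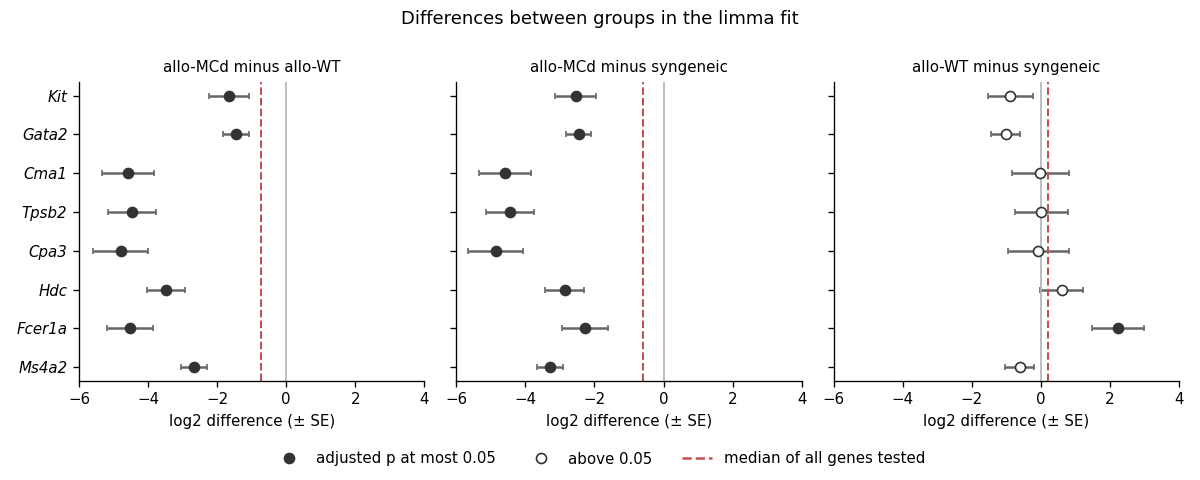
Log2 differences of the 8 members in the 3 comparisons (x axis, with the SE as bars), with filled points for an adjusted p of at most 0.05 and a dashed line at the median of the 697 genes tested. All 8 points lie left of that line in both comparisons of allo-MCd mice, and Fcer1a is the filled point in allo-WT minus syngeneic.

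Ratios of 2 genes within a mouse do not depend on how that mouse was scaled, so each member was set against Cpa3 in the same mouse. The ratio of 2 probes also depends on how well each captures its RNA, so only changes of a ratio between mice are described. Cma1 was 67.1%, 46.1% and 54.8% of Cpa3 in syngeneic mice and 60.8%, 58% and 54.2% in allo-WT mice. Although Cpa3 itself spanned 6.59-fold in allo-WT mice, this ratio stayed between 54.2% and 60.8%. Its mean log2 difference between the groups was 0.06, and that of Tpsb2 was 0.09, both with overlap.

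Kit and Fcer1a were the 2 of 7 ratios whose groups did not overlap, in opposite directions. Kit was 2.85%, 2.49% and 2.41% of Cpa3 in syngeneic mice and 1.36%, 1.18% and 1.83% in allo-WT mice, a log2 difference of -0.82. Fcer1a was 2.78%, 3.74% and 3.32% of Cpa3 in syngeneic mice and 25.5%, 10.9% and 15.1% in allo-WT mice, a log2 difference of 2.30, so that allo-WT mouse 2 also stood above the syngeneic mice. Each had an exact permutation p of 0.1, the smallest that 3 against 3 mice can give, and 0.35 after Benjamini-Hochberg adjustment over the 7 ratios. Among the other 696 genes tested, 4.02% had every allo-WT ratio below and 14.2% every allo-WT ratio above the syngeneic ratios. With a pseudocount of 20 the Kit ratio overlapped and the Fcer1a ratio did not. Without allo-WT mouse 1 both remained without overlap, at -0.77 and 1.98, and without allo-WT mouse 2, whose Kit value was below background, at -0.71 and 2.58. The share of all genes without overlap was not computed for these sets of mice.

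The ratio of the IgE-binding alpha chain to the beta chain was set out after the values were seen. Fcer1a was 0.89, 1 and 0.86 times Ms4a2 in syngeneic mice, and 26.9, 2.02 and 5.43 times Ms4a2 in allo-WT mice 1 to 3. No allo-WT mouse lay within the syngeneic range, as was so, with every allo-WT ratio above, for 37.6% of all genes set against Ms4a2. The mean log2 ratio differed by 2.85, so that the geometric mean was 7.19-fold higher (exact permutation p = 0.1, the smallest possible, two-sided). Without allo-WT mouse 1 the geometric mean was 3.58-fold higher and without allo-WT mouse 2 it was 13.04-fold higher. The groups did not overlap in either case. Of the remaining ratios to Cpa3, Gata2 differed by -0.95, Ms4a2 by -0.54 and Hdc by 0.68 on the log2 scale, all with overlap. These moved when single mice were left out. The Gata2 ratio differed by -0.50 without allo-WT mouse 1, and by -1.37 without mouse 2 and -1.04 without syngeneic mouse 2, then with no overlap. The Ms4a2 ratio differed by 0.13 without allo-WT mouse 1 and by -1.12, with no overlap, without mouse 2. The Hdc ratio differed by 0.013 without allo-WT mouse 2 and by 1.36, with no overlap, without mouse 3. The share of all genes without overlap was not computed with a mouse left out. Gata2 was 2.24% of Cpa3 in allo-WT mouse 1, against 7.03% to 9.23% in syngeneic mice, and Ms4a2 was 0.947% there, against 3.12% to 3.84%.

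**Figure D3:**
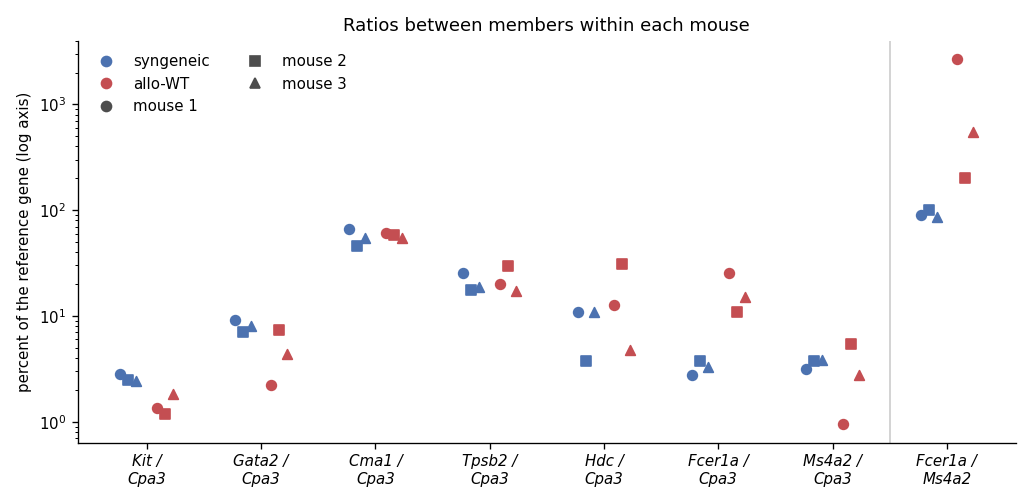
Percent of the reference gene (log axis) for 7 members against Cpa3 and for Fcer1a against Ms4a2, in each syngeneic and allo-WT mouse. The Fcer1a ratios of the 3 allo-WT mice lie above those of the 3 syngeneic mice, the Kit ratios below, and the Cma1 ratios together.

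How the members varied from mouse to mouse was followed over the 6 mast cell-sufficient mice, 3 syngeneic and 3 allo-WT, in 28 pairs. The allo-MCd mice form a separate cluster and were kept out. The 3 proteases ranked the mice in the same order, allo-WT mouse 1, syngeneic mouse 1, allo-WT mouse 3, syngeneic mouse 3, syngeneic mouse 2 and allo-WT mouse 2. Their Pearson's r was 0.99 for Cma1 with Tpsb2, 0.99 for Cma1 with Cpa3 and 0.95 for Tpsb2 with Cpa3, with Spearman's rho of 1 (exact permutation p = 0.00139 for r and 0.00278 for rho, 0.013 and 0.0194 adjusted over the 28 pairs). Without the 2 mice farthest from the median, r was 0.94 to 0.98.

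Ms4a2 and Gata2 shared another order of the mice, with r = 0.90 and rho = 1 (exact permutation p = 0.00417 and 0.00278, adjusted 0.0292 and 0.0194), and r = 0.85 without the 2 farthest mice. In that order syngeneic mice 1 and 3 were the highest and allo-WT mouse 1, the highest for the proteases, was below syngeneic mouse 2. The Ms4a2 value of allo-WT mouse 1 rested on 25 recovered counts, where its background was 14.8 counts. Without that mouse r with Cpa3 was 0.97 for Ms4a2 and 0.89 for Gata2. Kit had r = 0.88 for Cma1, 0.83 for Tpsb2 and 0.91 for Cpa3 (adjusted exact permutation p of 0.05, 0.0389 and 0.05), and rho was 0.89 for each (exact permutation p = 0.0333, adjusted 0.0933). Without the 2 farthest mice these r were 0.92, 0.91 and 0.90. Kit with Gata2 gave r = 0.86 (exact permutation p = 0.0222, adjusted 0.0778), which was 0.28 over the 4 mice left without the 2 farthest, and 0.87 as deviations from the group means.

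Fcer1a and its partner chain had r = -0.22 and rho = 0.14 (Ms4a2; exact permutation p = 0.64 and 0.80, adjusted 0.71 and 0.80). Without allo-WT mouse 1 this r was 0.29, and without the 2 farthest mice 0.38, and as deviations of the 6 mice from their group means it was 0.35, so its sign was not stable. Against the proteases the r of Fcer1a was 0.65 to 0.67 (exact permutation p of 0.132 to 0.153, adjusted 0.301) and its rho 0.89 (exact permutation p = 0.0333, adjusted 0.0933). Without allo-WT mouse 1 these r were 0.34 to 0.44, and without the 2 farthest mice 0.27 to 0.64. As deviations from the group means they were 0.89 to 0.97, a description over groups of 3 mice. Within each group Fcer1a thus ranked the mice as the proteases did, 1, 3 and 2. In all, 25 of 28 pairs had r above 0, with a median of 0.64 (28 and 0.83 as deviations from the group means), and 7 of 28 had an adjusted p of at most 0.05. That number was 4 with a pseudocount of 20 and 1 after scaling to the median gene. Pairs of other panel genes were not counted in this way, so these numbers are not read as particular to the members. Without allo-WT mouse 1 all 28 r were above 0 with a median of 0.89. The r of Ms4a2 with Cpa3 went from 0.45 to 0.97, that of Fcer1a with Hdc from 0.51 to 0.0074, and the proteases stood at 0.92 to 0.98.

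**Figure D4:**
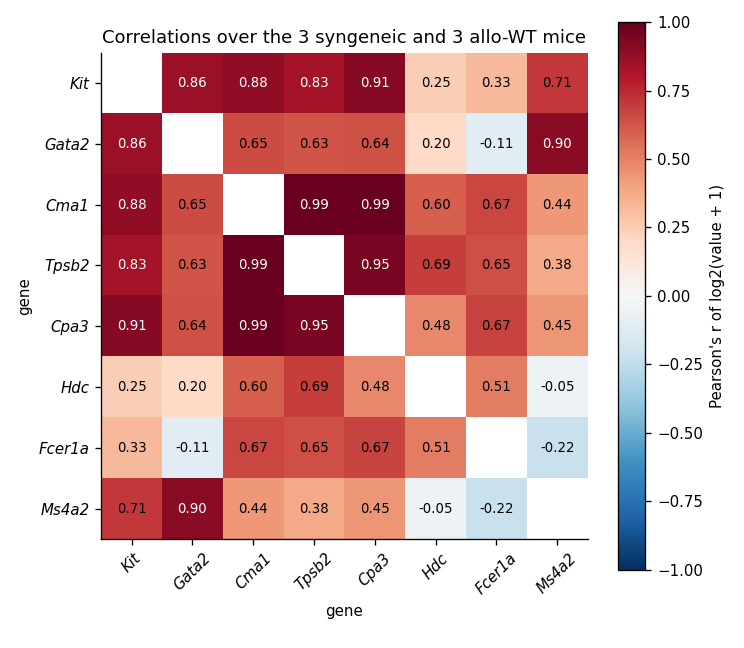
Pearson's r of log2(value + 1) between each pair of members over the 3 syngeneic and 3 allo-WT mice, with blank cells on the diagonal. The 3 proteases form a block at 0.95 to 0.99, and Ms4a2 with Gata2 stands at 0.90.

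The residual protease signal of allo-MCd mice also varied together. Mice 1, 3 and 4 had 180.8 to 308.7 normalized counts of Cpa3, and mice 2 and 5 had 38.9 and 29.9, close to their backgrounds of 17.2 and 24.9. The same 3 mice were above the other 2 for Cma1 (91.9 to 188.2 against 34.3 and 23.0) and Tpsb2 (41.8 to 66.2 against 12.1 and 9.21). Hdc did not share this order, with mouse 5 the highest at 39.1 and mouse 2, at 33.4, above mice 1 and 3. With each mouse taken as its deviation from its group mean, over all 11 mice, r among the proteases was 0.96 to 0.98, given as a description.

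**Figure D5:**
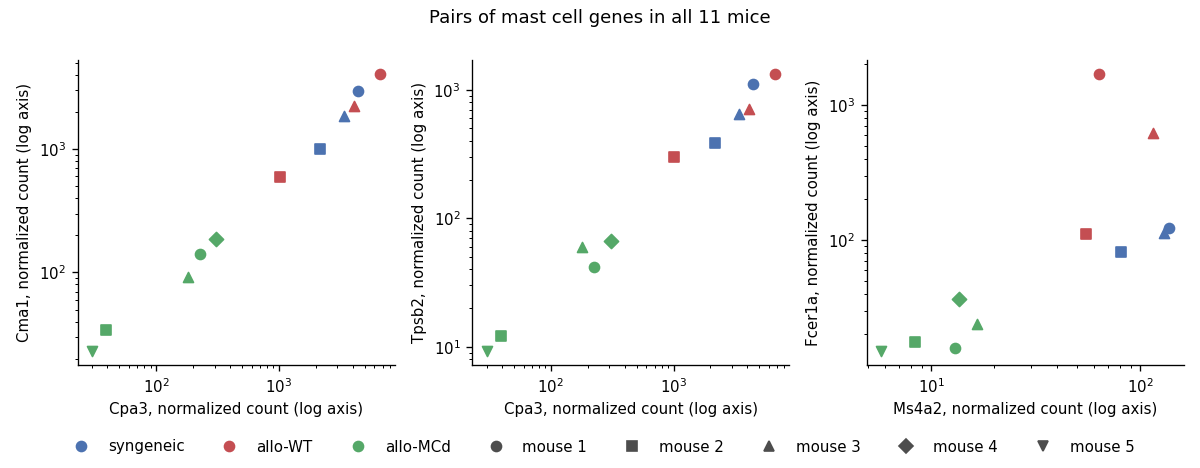
Normalized counts (log axes) of Cma1 and Tpsb2 against Cpa3, and of Fcer1a against Ms4a2, in all 11 mice. The protease points lie along 1 line across the 3 groups, while Fcer1a of allo-WT mice 1 and 3 lies far above syngeneic mice of like Ms4a2.

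The genes whose pattern was most like that of the proteases, by r with the mean log2 value of Cma1, Tpsb2 and Cpa3 over all 11 mice, began with another member, Ms4a2 (0.95). Gata2 (0.88), Hdc (0.87) and Fcer1a (0.87) ranked 7 to 9 of 697, the proteases themselves included, and Kit (0.82) ranked 30. Over the 6 mast cell-sufficient mice the order differed, with Kit at 0.89 (rank 6), Fcer1a at 0.67 (47), Gata2 at 0.65 (56), Hdc at 0.59 (74) and Ms4a2 at 0.43 (147). The r over 11 mice mostly carry the difference between allo-MCd and the other mice, and the median over all 697 genes was 0.50. Outside the members the 8 highest were Lat2 (0.90), Tnfrsf1b (0.88), Birc3 (0.85), Il23a (0.84), Syk (0.84), Itga4 (0.84), Cytip (0.84) and Ccl9 (0.83). Over the 6 mast cell-sufficient mice alone their r was between 0.15 for Birc3 and 0.79 for Cytip, and the median over all genes was 0.11. After scaling to the median gene that of Birc3 was -0.76, and over the 11 mice Il23a went from rank 11 to rank 61 (0.66). Lat2, an adaptor that joins the IgE receptor to signalling, measured 202.3 to 263.4 normalized counts in syngeneic, 266.3 to 458.8 in allo-WT and 65.3 to 103.3 in allo-MCd mice.

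Of 26 genes of Fc epsilon receptor signalling 11 were on the panel and tested. In allo-MCd against allo-WT mice 9 of 11 were called lower, where 50.4% of all genes were, among them Lat2 (log2 difference -2.02, limma adjusted p at most 0.05), the kinase genes Syk (-1.58) and Btk (-1.88), and the exchange factor gene Vav1 (-2.11). Fyn (-0.22) and Ptgs1 (0.11) were not called. The median was -1.58, against -0.71 over all genes, and after scaling to the median gene 6 were lower and Fyn and Ptgs1 were higher, with a median of -0.76 against 0.10, where 30.5% of all genes were lower and 35.2% higher. Against syngeneic mice 10 of 11 were called lower, where 37% of all genes were, with a median of -1.21 against -0.59, and 6 of 11 after scaling to the median gene, where 13.4% of all genes were. In allo-WT against syngeneic mice 2 of 11 were higher, where 28.1% of all genes were. These were Ptgs2 (2.70), an inducible prostaglandin synthase gene, and Vav1 (0.90). Only 1 of 11, Ptgs1 (-1.04), was lower, where 14.9% of all genes were. After scaling to the median gene 2 of 11 were higher and 2 of 11, Ptgs1 and Fyn (-0.74), were lower. Of all genes, 25.04% were then called higher and 26.75% lower. Many of these genes are also expressed by macrophages. All 8 macrophage marker genes were called lower in allo-MCd against allo-WT mice, where 50.4% of all genes were, and 7 of 8 after scaling to the median gene. They summed to 4271 to 8067 against 22329 to 38222, and to 13258 to 16231 in syngeneic mice, and their part in the values of the signalling genes was not tested.

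Of 20 growth factors, cytokines and receptors that act on mast cells, 15 were on the panel and 13 were tested. In allo-MCd against allo-WT mice 9 of 13 were lower, where 50.4% of all genes were, and none was higher, with a median log2 difference of -1.72 against -0.71. After scaling to the median gene 7 of 13 were lower, against 30.5% of all genes, and 2 of 13 were higher, against 35.2%. Il1rl1, the IL-33 receptor gene, was called lower before and after scaling (-3.09 and -2.27). So were its ligand gene Il33 (-2.55 and -1.72), Il4 (-2.66 and -1.89) and Cxcr2 (-3.18 and -2.38). Of the allo-MCd mice, 1 of 5 was above background for Il4 and 3 of 5 for Cxcr2. Kitl, which encodes the stem cell factor that Kit binds, was not called (0.53, limma adjusted p = 0.057). Kitl measured 829.8 to 990.2 normalized counts in syngeneic, 643.7 to 996.3 in allo-WT and 813 to 1359 in allo-MCd mice. After scaling to the median gene Kitl (1.35, adjusted p = 0.00094) and Cxcl12, a chemokine gene (0.72, adjusted p = 0.00914), were the 2 called higher in allo-MCd mice. Against syngeneic mice 5 of 13 were lower, near the 37% of all genes. None was lower and 2 of 13 were higher, near the 13.9% of all genes, after scaling to the median gene. In allo-WT against syngeneic mice 2 of 13 were higher, where 28.1% of all genes were.

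Of 13 further mast cell genes 3 were on the panel. Ctsg, which encodes cathepsin G and is also a neutrophil gene, measured 15.4 to 26.9 normalized counts in syngeneic, 54.9 to 147 in allo-WT and 9.27 to 20.7 in allo-MCd mice. It was above background in 1 of 3 syngeneic, 3 of 3 allo-WT and 2 of 5 allo-MCd mice, so the log2 difference of 2.19 between allo-WT and syngeneic mice (limma, adjusted p = 0.00198) was taken against values mostly not above background. Hpgds, the hematopoietic prostaglandin D synthase gene, was lower in allo-MCd against allo-WT mice (-0.77, adjusted p = 0.043) but not after scaling to the median gene (0.05). Adora3, an adenosine receptor gene, was not called in that comparison (-0.98, adjusted p = 0.087) and was lower against syngeneic mice (-1.30, adjusted p = 0.043), though not after scaling (adjusted p = 0.21). Ctsg was lower in allo-MCd against allo-WT mice (-2.47, adjusted p = 0.000161), also after scaling (-1.67, adjusted p = 0.00267). The panel's single genes from the T cell and keratinocyte lists gave sums of 28.9 to 39.9 and 4652 to 5187 in allo-MCd mice, against 162.2 to 200.3 and 3955 to 6371 in allo-WT mice.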

How the data were processed

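RNA from the skin of 11 mice, in groups of 3, 3 and 5, was counted on the Myeloid Innate Immunity panel. The authors normalized the molecule counts in nSolver, multiplying those of a mouse by 1 factor, and deposited them as a linear signal, here called normalized counts, with 754 genes and raw control probes. The version, the genes used for normalization and the treatment of background are not given in the sources used here. Whole counts were recovered by finding the factor of each mouse, and between 99.87% and 100% of its values were whole multiples of that factor within 0.011 normalized counts. Intervals of such counts cover counting error only, and none is printed. Housekeeping genes (19) were set aside, and the 697 genes that reached 20 in 3 or more mice entered the test, on log2(value + 1) with limma 3.58.1 (intensity trend, 3 groups in 1 fit, no covariate) in R 4.3.3, with Benjamini-Hochberg adjustment over all of them and a threshold of 0.05. Differences are therefore understated for low genes. Exact permutation tests were two-sided, over 56 arrangements of 3 against 5 mice, 20 of 3 against 3 and 720 pairings for a correlation. Python 3.11.15, numpy 2.4.6, pandas 2.3.3, scipy 1.17.1 and matplotlib 3.10.9 were used. The limma fit and the permutation test were tested on simulated data.

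The members, the gene lists and the tests were chosen with earlier results of these data known. Genes were named when they were members, belonged to a list and passed the test or bore on a result, or were among the 8 other genes most like the proteases. Alternatives covered the pseudocount, filter, scaling, trend, groups in the fit, the methods' 3-group test, the replicate number as a block, and each mouse left out. The count model planned as an alternative was not run, and limma's voom on the recovered counts was added in its place after the data were seen. Promoter windows and gene positions are RefSeq's (GRCm38.p6).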

Additional observations from a re-analysis of the deposited data

How the results depend on the processing

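Of 576 recomputed differences of a member in 1 of the 3 comparisons, 510 kept their direction and their side of the threshold, 43 lost and 5 gained a call, and 18 changed sign. All 18 were in allo-WT minus syngeneic and none had been called. For allo-MCd minus allo-WT, 8 members were called, 6 to 8 under the other scalings, filters and fits and 7 or 8 with a mouse left out. Of all genes 50.4% were called lower, 29.4% (quantile normalization) to 50.5% (pseudocount of 20) under the other settings. With a mouse left out this share was 43.5% to 51.8%. The methods' 3-group test with Tukey's comparison called 4, where 42.9% of all genes were lower. After Benjamini-Hochberg adjustment it called 1 (Ms4a2), where 37.0% of all genes were lower. For allo-MCd minus syngeneic, 8 were called, 7 or 8 with a mouse left out, 4 by the methods' test and 2 (Ms4a2 and Gata2) after adjustment. The shares of all genes called lower were 37.0%, 23.9% to 44.75% with a mouse left out, 26.0% by the methods' test and 9.47% after adjustment. For allo-WT minus syngeneic, 1 was called. Without a mouse the number was 0 to 1. It was 2 with median scaling, quantile normalization or the replicate block (Gata2, -1.02, adjusted p = 0.046, added), and 0 with voom, with only the 2 groups in the fit, and with the methods' test. Of all genes 14.92% were called lower and 28.12% higher. These shares were 26.75% and 25.04% with median scaling, 29.99% and 23.1% with quantile normalization, and 14.63% and 26.97% with the block. With voom they were 14.35% and 27.83%, and with only the 2 groups 12.05% and 26.54%. The methods' test before adjustment gave 14.63% and 28.26%.

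Sign changes in allo-WT minus syngeneic were as follows. Cma1 gave 0.0019 rescaled to housekeeping genes and 359.9 normalized counts in the methods' test, Cpa3 621.8 there, and Tpsb2 -0.22 with median scaling, -0.24 with quantile normalization and -0.051 with voom. With a mouse left out, Cma1 ranged from -0.62 to 0.77, Tpsb2 from -0.49 to 0.58, Cpa3 from -0.64 to 0.72, Kit from -1.40 to 0.012 and Hdc from -0.17 to 1.10. The ratios to Cpa3 ranged from -0.074 to 0.20 for Cma1, -0.14 to 0.26 for Tpsb2 and -1.12 to 0.13 for Ms4a2. Ratios without overlap numbered 2, 1 with a pseudocount of 20, 3 with Cma1 as the reference, and 2 to 4 without a mouse (4 without allo-WT mouse 2). The share of all genes without overlap was computed for the first of these alone, 4.02% below and 14.2% above. Correlated pairs numbered 7, 4 with a pseudocount of 20 and 1 with median scaling, and pairs of other genes were not counted. Members above background in allo-MCd mice were 25 of 40 values by either definition. The causes were not tested.

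Over all genes, same-numbered mice of different groups did not all deviate together (r from -0.11 to 0.21; 0.059 to 0.21 between syngeneic and allo-WT mice), and the labels give no meaning to the numbers. In Kit, the 3 proteases and Fcer1a both groups had mouse 1 highest and mouse 2 lowest, and the block lowered the SE of allo-WT minus syngeneic from 0.83 to 0.27 for Cma1 and from 0.89 to 0.35 for Cpa3. The block changed no other call of a member. The planned count-model tests were not run, and voom on the recovered counts stood in for them. In allo-MCd mice Kit and Ms4a2 have only upper bounds, and groups of 3 limit every comparison.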
